A study of Mus musculus with 8 samples.

Results

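The nuclear genes of the mitochondrial respiratory chain and the ATP synthase were examined in mouse brain tissue around a cavity in the motor cortex. Members were all genes of the deposited expression table whose symbol names a subunit of complex I (Nduf followed by a, b, c, s or v and a digit), complex II (Sdha to Sdhd), complex III (Uqcr and Cyc1), complex IV (Cox4 to Cox8) or complex V (Atp5), together with cytochrome c (Cycs). The rule found 86 of the 17644 genes in the table: 37 of complex I, 4 of complex II, 9 of complex III, 17 of complex IV, 18 of complex V and Cycs. Symbols alone chose them, so the members did not have to differ between the groups, and 85 of the 86 passed the filter on low values. The remaining gene, Atp5l2, was listed at 0.37 to 0.90 CPM (reads of the gene per 1000000 reads of the library) in the 8 libraries and was not tested. RefSeq carries it as a pseudogene.

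The animals were 11-week-old male C57BL/6NCrSlc mice, with no transgene named in the labels. In both groups cortical tissue was aspirated to a depth of 1 mm to leave a cavity, and tissue within a 1.0 mm margin of it was taken either with no delay (4 libraries) or 1 week after the lesion (4 libraries). No unlesioned cortex was analysed here, so the reference is tissue lesioned and taken at once. RNA was measured by CAGE, a method that reads short stretches at the capped 5′ ends of transcripts. A transcript gives its start once whatever its length, so CPM values were compared between genes without dividing by length. Each library is named below by its group and by the 6-base tag in its column name. Values of single libraries are listed with acagtg first, followed by atcacg, then by cgatgt, and with tgacca last, no delay before 1 week.

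The respiratory chain passes electrons from NADH (complex I) and succinate (complex II) through complex III and cytochrome c to oxygen at complex IV, and the proton gradient built on the way drives the ATP synthase, complex V. Most subunits are encoded in the nucleus, are made in the cytosol and have to be matched to the few subunits encoded in mitochondrial DNA. Neurons draw on this pathway heavily. Several subunits exist as isoforms from separate genes, among them Cox4i2, Cox6a2, Cox6b2, Cox7a1 and Cox8b, which are best known from lung, muscle or testis and stand in for a widely used partner.

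Libraries held 8278855 to 13998941 reads. As a background to the members, 23.4% of the 14718 genes tested rose at 1 week, 13.4% fell and 36.8% changed in either direction (limma, adjusted p under 0.05). The tissue markers were those of brain: all 8 neuronal markers were measured, 2 of them fell (Rbfox3 and Syt1) and their summed level was 6532 to 7430 CPM with no delay and 5907 to 6443 CPM at 1 week. Markers of other cells rose: 8 of 8 microglial markers (summed 478 to 486 CPM, then 1665 to 2437 CPM), 7 of 7 astrocyte markers (2160 to 2467 CPM, then 4386 to 5009 CPM), 5 of 6 oligodendrocyte markers (1323 to 2980 CPM, then 2115 to 3667 CPM), 4 of 5 endothelial markers (113 to 127 CPM, then 177 to 213 CPM) and all 4 monocyte and macrophage markers tested of 5 listed (9.63 to 12.0 CPM, then 128 to 331 CPM). Of 5 red blood cell markers 0 were called, and their sum was uneven between libraries. It was 659 to 1562 CPM with no delay and 348 (cgatgt) to 5361 CPM (acagtg) at 1 week. The part of these marker levels in the members' values was not tested. In such bulk tissue fewer cells of a type and less RNA per cell cannot be told apart. The 3-base tag in the column names is CAC in every no-delay column and GCT in every 1-week column, so its effect and that of time cannot be told apart. The no-delay library cgatgt stood apart in the members' levels, and results without it are given below.

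Promoter sequences of 3 isoform pairs are shown because, as described further on, 5 of 6 low isoforms rose while no abundant partner passed the test, and Cox8b is the low isoform that did not. RefSeq promoter windows on GRCm38.p6 were matched by symbol for 69 of the 86 members, and 180 bases of these 6 are printed, from 150 before to 30 after the annotated start, 5′ to 3′ in the direction of transcription, with every CG dinucleotide in capitals. They are Cox6b2 (chr7:4753065-4753244, minus strand), Cox6b1 (chr7:30626085-30626264, minus strand), Cox7a1 (chr7:30184021-30184200, plus strand), Cox7a2 (chr9:79759824-79760003, minus strand), Cox8b (chr7:140900417-140900596, minus strand) and Cox8a (chr19:7217587-7217766, minus strand).
Cox6b2: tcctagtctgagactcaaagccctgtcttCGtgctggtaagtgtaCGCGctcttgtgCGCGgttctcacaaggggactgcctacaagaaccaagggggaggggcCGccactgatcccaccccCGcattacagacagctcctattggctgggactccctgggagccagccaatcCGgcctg
Cox6b1: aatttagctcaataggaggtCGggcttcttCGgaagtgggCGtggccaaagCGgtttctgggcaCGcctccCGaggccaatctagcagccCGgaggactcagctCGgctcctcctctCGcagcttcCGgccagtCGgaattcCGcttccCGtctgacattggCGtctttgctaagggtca
Cox7a1: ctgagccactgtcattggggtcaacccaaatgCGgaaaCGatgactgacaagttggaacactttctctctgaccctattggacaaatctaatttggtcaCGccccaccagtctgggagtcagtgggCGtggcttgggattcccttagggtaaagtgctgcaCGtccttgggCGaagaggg
Cox7a2: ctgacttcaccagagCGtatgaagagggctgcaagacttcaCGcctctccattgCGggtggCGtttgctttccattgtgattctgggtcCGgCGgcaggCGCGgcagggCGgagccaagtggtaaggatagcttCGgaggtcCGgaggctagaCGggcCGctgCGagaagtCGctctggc
Cox8b: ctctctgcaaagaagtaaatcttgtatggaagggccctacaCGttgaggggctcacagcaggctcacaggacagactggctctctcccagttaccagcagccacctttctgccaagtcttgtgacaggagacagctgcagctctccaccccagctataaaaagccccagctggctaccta
Cox8a: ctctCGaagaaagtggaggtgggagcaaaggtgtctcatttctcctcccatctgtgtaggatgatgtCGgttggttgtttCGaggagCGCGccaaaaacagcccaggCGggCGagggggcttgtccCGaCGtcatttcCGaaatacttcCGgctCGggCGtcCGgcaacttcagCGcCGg

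The low isoform of each pair carried fewer CG dinucleotides in these 180 bases: 8 for Cox6b2 and 14 for Cox6b1, 6 for Cox7a1 and 15 for Cox7a2, and 1 for Cox8b and 16 for Cox8a. Over the whole RefSeq window of 300 bases, the ratio of observed to expected CG was 0.43 for Cox6b2 and 0.81 for Cox6b1. It was 0.33 for Cox7a1 and 0.83 for Cox7a2, and 0.12 for Cox8b and 0.84 for Cox8a. Among the 69 members with a window the median ratio was 0.82, beside 0.79 for the 10929 genes tested that had one. A ratio under 0.5 was found in 5 members (7.25%): these 3 low isoforms, Cox7b and Ndufc2. The low isoforms Cox4i2, Cox6a2 and Ndufa4l2 had no window, so their ratios are not known here. The share among the genes tested was 16.3%. Whether CG content bears on the change at 1 week was not tested.

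The other promoters shown hold GCGCA, then any base, then GCGC, the core bound by nuclear respiratory factor 1 (NRF1). This factor is known for its sites in genes of this pathway. The capitals mark those letters in Atp5g2 (chr15:102671018-102671197, minus strand), Atp5k (chr5:108434370-108434549, minus strand) and Cox6a1 (chr5:115348929-115349108, minus strand), which had the highest fold change of complex V, the lowest of complex V and a value near 0.
Atp5g2: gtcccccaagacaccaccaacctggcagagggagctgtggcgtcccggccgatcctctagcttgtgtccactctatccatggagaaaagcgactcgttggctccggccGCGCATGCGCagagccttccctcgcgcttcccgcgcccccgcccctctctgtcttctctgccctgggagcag
Atp5k: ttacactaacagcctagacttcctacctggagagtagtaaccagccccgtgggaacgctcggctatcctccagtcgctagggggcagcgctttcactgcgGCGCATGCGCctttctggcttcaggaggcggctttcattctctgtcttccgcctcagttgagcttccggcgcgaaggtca
Cox6a1: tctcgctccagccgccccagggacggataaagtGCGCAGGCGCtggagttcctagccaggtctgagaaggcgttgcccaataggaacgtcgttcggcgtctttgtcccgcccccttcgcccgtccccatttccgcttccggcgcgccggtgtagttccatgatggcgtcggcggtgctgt

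Letters were searched on both strands, and a gene with more than 1 window counted once. The NRF1 letters were found in 17 of the 69 members with a window (24.6%). The shares were 11.2% of the genes tested with a window and 5.19% of all 27025 genes with one. The YY1 letters AAGATGGCG were in 8 members (11.6%), beside 3.36% of genes tested. The letters CCGGAAG, the core of ETS-family sites such as those of GABP, were in 16 (23.2%), beside 18.7%. TATAAA was in 6 (8.70%), beside 8.75%, and Cox8b was one of these members. In the printed bases of Cox8b these letters lie just after the annotated start, not before it. These matches describe letters in a window and do not show binding.

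Of the 85 members tested, 11 rose at 1 week and none fell (limma on log2(CPM + 1), Benjamini-Hochberg adjusted p under 0.05). That is 12.9% of the members, below the 23.4% of all genes tested that rose, and the 0 that fell stand beside 13.4% of all genes. At an unadjusted p under 0.05, 17 members were higher and 3 lower, and on the recovered reads edgeR called 9 higher and 2 lower and DESeq2 9 higher and 5 lower. The groups did not overlap in 14 members, beside 34.7% of all genes tested. In 13 of them the 1-week libraries were all above the no-delay range, beside 22.7% of all genes, and in 1, Ndufs6, they were all below it, beside 12% of all genes. The median log2 fold change was 0.10 over the members and 0.06 over all genes tested, with SDs of 0.34 and 0.53. Without the 6 low isoforms described below, the SD over the other 79 members was 0.17. Of the 74 members not called, 69 had a 95% interval within 1.5-fold of no change in either direction, beside 8092 of the 9308 genes not called among all tested.

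**Figure D1:**
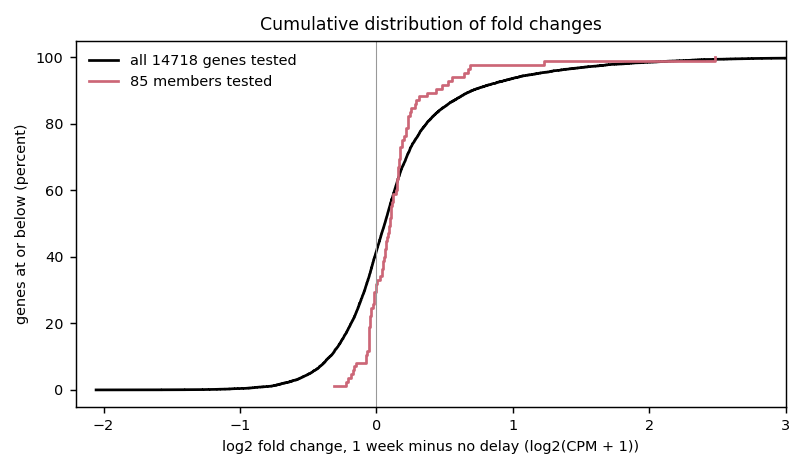
Cumulative distribution of log2 fold changes, 1 week minus no delay, for the 85 members tested (red) and all 14718 genes tested (black). The members' curve is steeper, with SDs of 0.34 and 0.53, and its lowest member stands at -0.31.

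Most of the pathway's RNA was carried by genes that did not pass the test. The summed level of all members was 29317, 30905, 25242 and 31478 CPM with no delay and 31202, 30038, 29900 and 29611 CPM at 1 week, so the groups overlapped. The means were 29235 ± 2815 and 30188 ± 699 CPM (SD, n = 4 each). The no-delay library cgatgt gave the lowest of these 8 sums.

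Complex I, the NADH dehydrogenase and the entry point for most electrons, had a median log2 fold change of 0.07. Of its 37 members, 3 rose (8.11%), beside 23.4% of all genes tested. They were Ndufs8, Ndufa3 and the isoform Ndufa4l2, which is described further on. Ndufs8, which holds iron-sulfur clusters of the core, stood at 96.9, 95.6, 91.8 and 98.7 CPM with no delay and at 110, 111, 108 and 102 CPM at 1 week. The groups did not overlap, and the rise was small, 0.17 ± 0.06 on the log2 scale (± SE; adjusted p = 0.039 by limma). The call was lost in 11 of 19 alternative analyses. Ndufa3, an accessory subunit of the membrane arm, rose from 178, 187, 174 and 179 CPM to 253, 241, 236 and 204 CPM. Its lowest 1-week library lay above its highest no-delay library, and its log2 fold change was 0.37 ± 0.07 (SE; limma adjusted p = 1.4e-03).

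Ndufa4, which the symbol rule places in complex I although the protein is now counted as a subunit of complex IV, was at 901, 964, 752 and 1042 CPM and then at 928, 934, 901 and 966 CPM, and it did not pass the test. Grouped after the values were seen, the 7 catalytic core genes of complex I had a median log2 fold change of 0.16 with 1 called, and the 28 accessory genes a median of 0.01 with 1 called. The summed core level was 1517, 1475, 1173 and 1496 CPM with no delay and 1504, 1540, 1538 and 1479 CPM at 1 week. These sums overlapped, and no-delay library cgatgt was far the lowest. The difference between core and accessory genes was not tested. Ndufa5 and Ndufs6, accessory subunits chosen after their values were seen, had negative log2 fold changes of -0.21 ± 0.08 and -0.16 ± 0.06 (SE), with limma adjusted p = 0.062 and 0.063. Ndufs6 was at 197, 216, 196 and 216 CPM and then at 190, 173, 192 and 182 CPM.

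Complex II, succinate dehydrogenase, links the chain to the Krebs cycle. Its membrane anchor Sdhc was at 42.3, 43.2, 29.9 and 32.2 CPM with no delay and at 61.6, 57.8, 52.1 and 42.2 CPM at 1 week. The lowest 1-week library lay within the no-delay range, and the rest lay above it. Sdhc rose by 0.53 ± 0.14 on the log2 scale (± SE; adjusted p = 9.9e-03 by limma). The other anchor, Sdhd, had a log2 fold change of 0.17 (limma adjusted p = 0.13), and the iron-sulfur subunit Sdhb one of 0.16 (limma adjusted p = 0.15). The flavoprotein Sdha, the largest in level, was at 370 ± 58.5 and 378 ± 26.5 CPM (SD, n = 4 each), a log2 fold change of 0.04 with a 95% interval of -0.18 to 0.26. Differences between the 4 genes were not tested.

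Complex III, the cytochrome bc1 complex, had 0 of 9 members called by limma, beside 36.8% of all genes tested. At an unadjusted p under 0.05 it also had 0. Its median log2 fold change was 0.11. Cyc1, its cytochrome c1, was at 220, 215, 150 and 213 CPM and then at 208, 227, 222 and 200 CPM, with the no-delay library cgatgt apart from the rest. Uqcr10 and Uqcr11, small subunits with the highest levels in the complex, were at 525 ± 89.4 and 478 ± 88.4 CPM with no delay and at 544 ± 29.7 and 473 ± 32.7 CPM at 1 week (SD, n = 4 each). Cycs, the mobile carrier between complexes III and IV, was at 206, 190, 167 and 209 CPM and then at 227, 193, 201 and 179 CPM. Its log2 fold change was 0.05 with a 95% interval of -0.14 to 0.24.

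**Figure D2:**
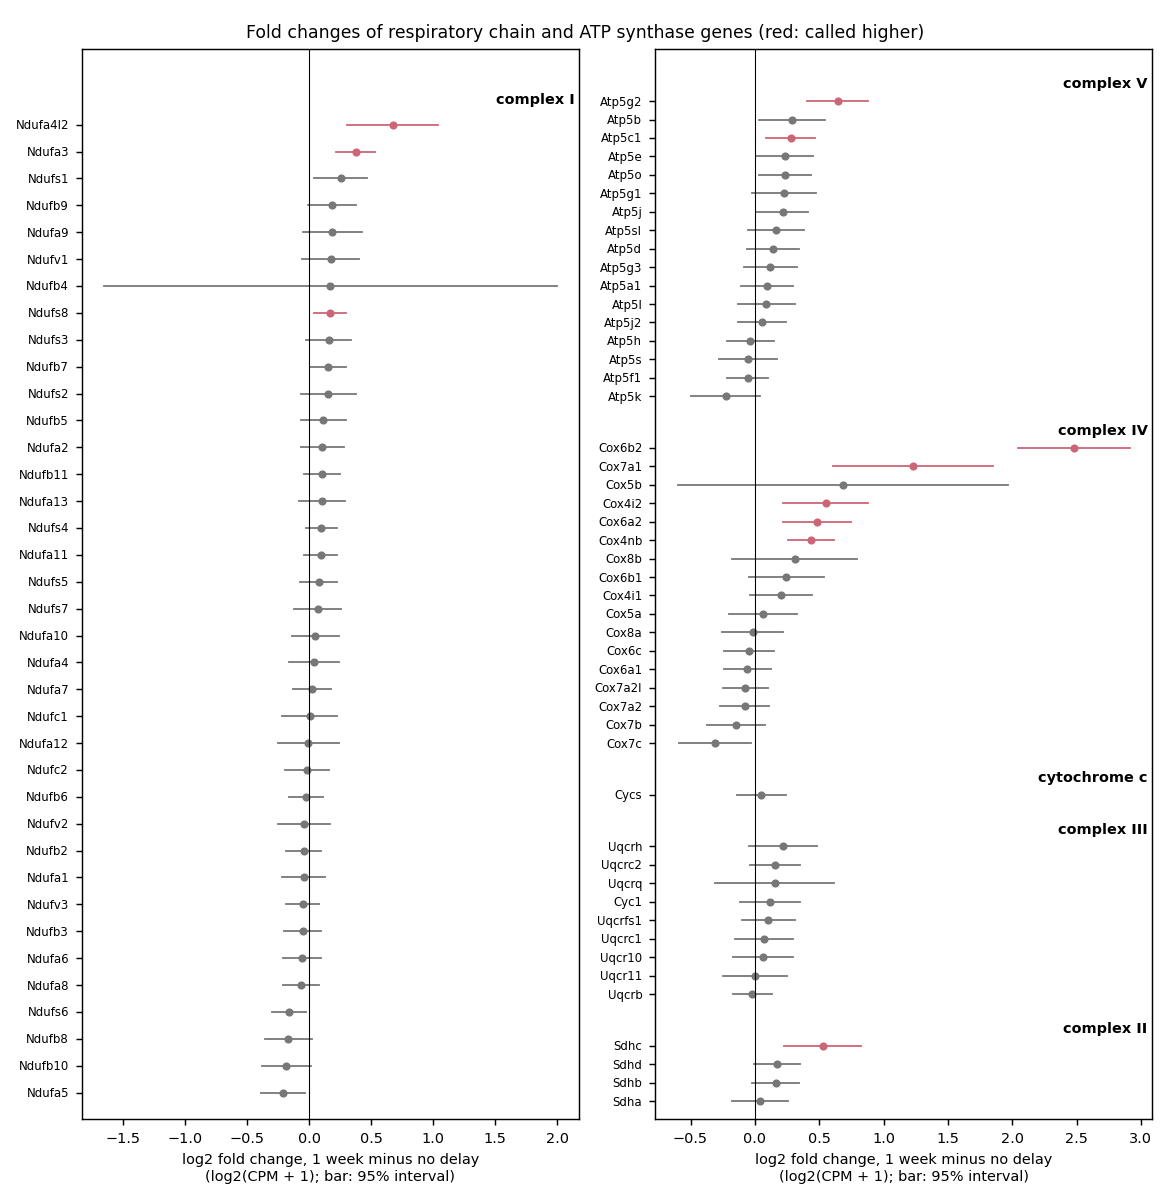
Log2 fold change of each of the 85 members tested, 1 week minus no delay on the log2(CPM + 1) scale, by complex, with 95% intervals from limma as bars. Red marks the 11 members that rose. Ndufb4 and Cox5b have the widest intervals, and Cox6b2 has the largest value at 2.48.

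Complex IV, cytochrome c oxidase, had 5 of 17 members that rose (29.4%), beside 23.4% of all genes tested. Its median log2 fold change was 0.20. Of those 5, 4 were tissue isoforms at low level. The other was Cox4nb, whose symbol fits the rule although it names no oxidase subunit: RefSeq lists it as Emc8, a part of the ER membrane protein complex, and it starts 351 bases from Cox4i1 on the other strand. Cox4nb was at 54.9, 41.5, 46.6 and 45.6 CPM and then at 61.2, 65.0, 65.5 and 64.1 CPM, without overlap (log2 fold change 0.44 ± 0.08, SE; limma adjusted p = 1.3e-03). Leaving out genes with few reads (a minimum of 5 CPM in 4 libraries) took the median of complex IV to 0.06.

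The most changed member was Cox6b2, the testis-type isoform of an oxidase subunit at the face that meets cytochrome c. Its levels were 1.95, 2.47, 1.19 and 1.04 CPM with no delay (10 to 27 reads) and 15.1, 16.6, 13.9 and 9.53 CPM at 1 week (117 to 224 reads). No 1-week library came near the no-delay range. The ratio of mean CPM was 8.28, and the log2 fold change was 2.48 ± 0.20 (SE; limma adjusted p = 1.7e-06). Log2(CPM + 1) understates changes at such low levels. Its partner Cox6b1 was at 498, 545, 404 and 352 CPM and then at 584, 562, 548 and 424 CPM, which overlap, with a log2 fold change of 0.25 (limma adjusted p = 0.18).

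Cox7a1, the isoform of heart and skeletal muscle, was at 5.84, 6.68, 1.58 and 6.36 CPM with no delay and at 12.2, 13.5, 13 and 10.3 CPM at 1 week. All 1-week libraries lay above all no-delay libraries, among which cgatgt stood apart as the lowest. The log2 fold change was 1.23 ± 0.29 (SE; limma adjusted p = 5.1e-03), and 0.85 without no-delay library cgatgt. The partner Cox7a2 was at 790 ± 83.7 and 746 ± 53.0 CPM (SD, n = 4 each) and did not pass the test. Cox6a2, a muscle isoform that brain expresses in parvalbumin interneurons, was at 22.2, 26.7, 18.7 and 25.8 CPM and then at 28.4, 32.8, 31.9 and 38.9 CPM. These ranges do not overlap either, and the log2 fold change was 0.48 ± 0.12 (SE; limma adjusted p = 8.2e-03). Its partner Cox6a1 was at 1803 ± 129 and 1731 ± 92.7 CPM (SD, n = 4 each), a log2 fold change of -0.06.

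Cox8b, the third muscle isoform, was at 0.82, 2.56, 0.79 and 1.25 CPM and then at 1.21, 2.07, 2.07 and 1.95 CPM. The groups overlapped at 8 to 29 reads a library, and the difference was not detectable at this depth (log2 fold change 0.31 with a 95% interval of -0.18 to 0.79; limma adjusted p = 0.30). Cox8a, with the highest level of all members, was at 2288 ± 278 and 2256 ± 221 CPM (SD, n = 4 each). Of the 6 skeletal muscle markers listed, 1 was in the table and it reached at most 0.2 CPM in any library. Of 6 markers of fast-spiking interneurons, Pvalb rose (log2 fold change 0.83, limma adjusted p = 6.8e-04) while Kcnc1 and Kcnc2 fell (-0.46 and -0.37), and their summed level was 534 to 596 CPM and then 514 to 584 CPM. The part of these cells in the change of Cox6a2 was not tested.

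Cox4i2, the isoform of subunit 4 known from lung and vascular wall, was at 1.23, 1.83, 1.88 and 2.08 CPM and then at 2.90, 3.18, 3.5 and 2.52 CPM. The groups did not overlap at 12 to 49 reads a library (log2 fold change 0.55 ± 0.15, SE; limma adjusted p = 0.013). Ndufa4l2, a relative of Ndufa4 known as a target of hypoxia-inducible factor, was at 5.63, 2.93, 3.76 and 4.48 CPM and then at 8.21, 7.76, 5.64 and 7.17 CPM. Its highest no-delay and lowest 1-week libraries were nearly equal, and the log2 fold change was 0.67 ± 0.17 (SE; limma adjusted p = 8.3e-03). Both calls were lost under quantile normalization (limma adjusted p = 0.48 and 0.17). Of 8 markers of pericytes and smooth muscle, 5 rose and none fell. Their summed level was 140 to 183 CPM with no delay and 204 to 255 CPM at 1 week, and their part in the rise of Cox4i2 and Ndufa4l2 was not tested.

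Counted as a group, 5 of the 6 low isoforms rose (Cox4i2, Cox6a2, Cox6b2, Cox7a1 and Ndufa4l2), beside 23.4% of all genes tested. None of their 6 abundant partners (Cox4i1, Cox6a1, Cox6b1, Cox7a2, Cox8a and Ndufa4) passed the test. This grouping was not a planned result. It leaves out Cox7a2l, which was also paired with Cox7a2 and did not pass the test. The summed level of the low isoforms was 37.7, 43.2, 27.9 and 41.1 CPM with no delay and 68.0, 75.8, 69.9 and 70.3 CPM at 1 week. These sums did not overlap and were a small part of the partners' sums of 7075 ± 695 and 7141 ± 351 CPM (SD, n = 4 each).

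**Figure D3:**
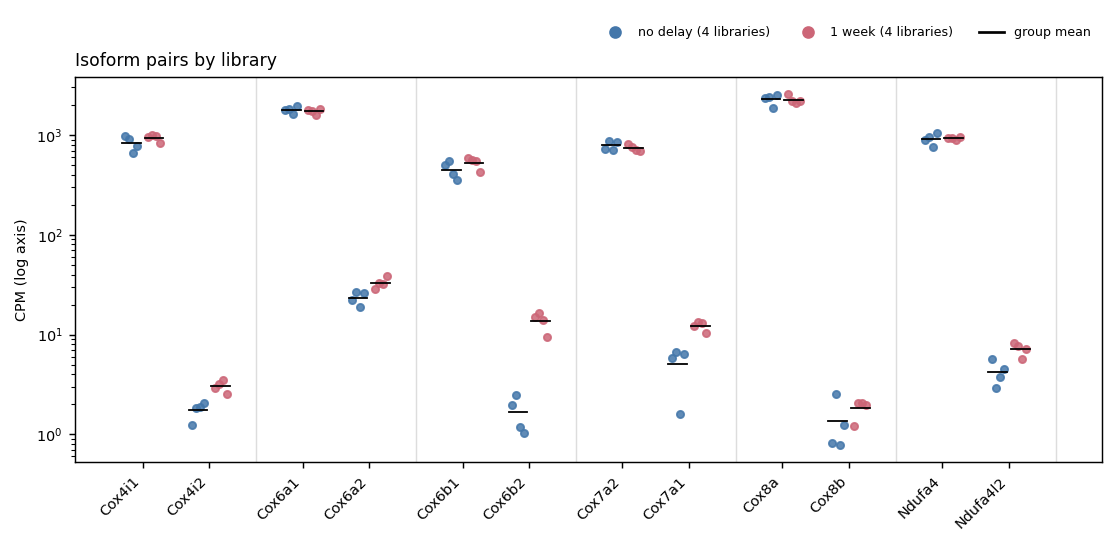
CPM (log axis) of 6 isoform pairs in the 4 no-delay (blue) and 4 1-week (red) libraries, with black lines at the group means. Within each pair the abundant partner is on the left and overlaps between the groups, while Cox6b2 moves from 1.04 to 2.47 CPM to 9.53 to 16.6 CPM.

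In a ratio of isoforms within a library the scaling of the library cancels, apart from the 1 CPM added to each gene, and TMM scaling moved the differences by at most 0.0236. Over 10 pairs, the log2 ratio of Cox6b2 to Cox6b1 was -7.42 ± 0.10 with no delay and -5.18 ± 0.14 at 1 week (SD, n = 4 each), a difference of 2.23. Cox7a1 against Cox7a2 differed by 1.31, Ndufa4l2 against Ndufa4 by 0.63 and Cox6a2 against Cox6a1 by 0.54, all without overlap between the groups. Atp5g1 against Atp5g2 differed by -0.42, also without overlap. Each of these 5 had p = 0.0286 in a 2-sided exact permutation test over 70 arrangements, the smallest that 4 against 4 libraries allow. Their adjusted p over the 10 pairs was 0.0571, so no ratio passed at a pseudocount of 1. At least 6 ratios have to reach this smallest p together before any can pass, whatever the size of a difference. Failing here therefore does not speak against a shift of a single ratio. The Atp5g pairs also share genes with each other. With a pseudocount of 0.25 the ratio of Cox4i2 to Cox4i1 also ceased to overlap, and 6 ratios passed in the exact permutation test at an adjusted p of 0.0476. Without no-delay library cgatgt 6 ratios also passed at that adjusted p (exact permutation over 35 arrangements), those of Cox6b2, Cox7a1, Ndufa4l2 and Cox4i2 to their partners and of Atp5g2 to Atp5g1 and to Atp5g3, and without any other single library none did. The ratio of Cox7a2l, a supercomplex assembly factor, to Cox7a2 did not move (difference 0.00, exact permutation p = 1), while the other pairs overlapped.

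Complex V, the ATP synthase, had 2 of 17 members that rose (11.8%), beside 23.4% of all genes tested. Its median log2 fold change was 0.14, which was 0.07 without no-delay library cgatgt and 0.08 with TMM scaling. Atp5g1, Atp5g2 and Atp5g3 encode the same mature ring subunit c from different precursors. Atp5g2 was at 86.4, 81.9, 78.5 and 62.7 CPM with no delay and at 130, 135, 119 and 101 CPM at 1 week. All 1-week libraries lay above all no-delay libraries, 0.64 ± 0.11 higher on the log2 scale (± SE; adjusted p = 6.0e-04 by limma), and the call held in all 19 alternatives. Atp5g1 had a log2 fold change of 0.23 (limma adjusted p = 0.14) and Atp5g3, the most abundant of these genes, one of 0.12 (limma adjusted p = 0.35). Against Atp5g3, the log2 ratio of Atp5g2 differed by 0.52 (exact permutation p = 0.0571, adjusted p = 0.0952).

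Atp5c1, the central stalk subunit gamma, was at 299, 259, 219 and 280 CPM and then at 313, 333, 327 and 303 CPM. The groups did not overlap, but the nearest libraries were close, and the rise of 0.28 ± 0.09 on the log2 scale (± SE; adjusted p = 0.026 by limma) lost its call in 8 of 19 alternatives. Atp5b, the catalytic beta subunit, named after its values were seen, was at 1284, 1244, 892 and 1360 CPM and then at 1436, 1477, 1466 and 1390 CPM. It did not overlap between the groups, yet it missed the threshold (log2 fold change 0.29, limma adjusted p = 0.071). All 5 genes of the catalytic F1 head and stalk had fold changes above 0, with a median of 0.23 and 1 called, and the 10 genes of the membrane and peripheral parts had a median of 0.10 with 1 called. The summed F1 level was 2828, 2749, 2114 and 2870 CPM with no delay, lowest in cgatgt, and 3067, 3126, 3084 and 2936 CPM at 1 week. The difference between these parts was not tested. The rule also took Atp5s and Atp5sl, which RefSeq lists as Dmac2l and Dmac2 and which are no subunits of the synthase. Neither passed the test.

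The no-delay library cgatgt stood apart in this pathway. It was the lowest of its group in 64 of the 85 members, beside 19.2% of all genes tested, and its median deviation from the members' no-delay means was -0.21 on the log2 scale, while that over all genes was 0.02. In complexes I to V its median deviation was -0.16, -0.22, -0.32, -0.21 and -0.26. It was also lowest for the summed Krebs cycle genes (1993 CPM, others 2287 to 2528 CPM), but highest for the summed subunits encoded in mitochondrial DNA (8914 CPM, others 6748 to 8368 CPM). Without this library the median log2 fold change of the members was 0.02, beside 0.06 for all genes, and that of complex I was -0.02. Then 9 members rose, Atp5c1 and Ndufs8 losing their calls, and 3 fell (Ndufa5, Ndufb8 and Ndufb10), beside 3152 and 1634 genes of 14658 tested. The reason why it stands apart was not tested.

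**Figure D4:**
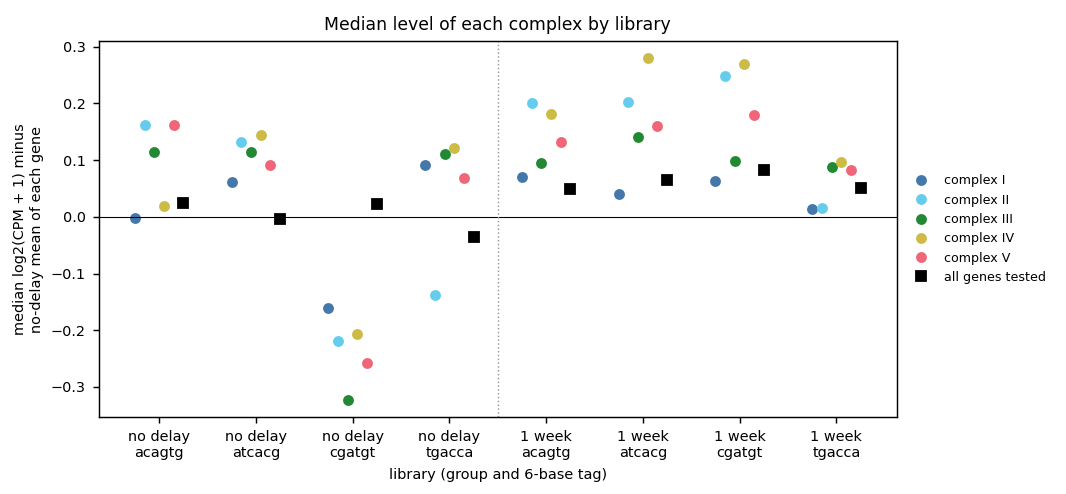
Median over each complex's members of log2(CPM + 1) minus the gene's no-delay mean, for the 8 libraries named by group and 6-base tag, with all genes tested as black squares. In no-delay library cgatgt all 5 complexes lie between -0.16 and -0.32 while all genes lie at 0.02.

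Among the 1-week libraries, tgacca was the lowest of its group in 44 of 85 members, beside 31.5% of all genes tested. Without it 19 members rose and 1 fell, 23.5% of the members together, beside 36.9% of the 14456 genes tested then (3207 higher and 2132 lower). The member that fell was Cox7c, a small oxidase subunit chosen after its values were seen. Cox7c was at 936, 1021, 824 and 920 CPM and then at 650, 637, 737 and 1000 CPM (log2 fold change -0.31 ± 0.13, SE; limma adjusted p = 0.077), with tgacca apart from the other 1-week libraries. The 8 further members that rose without tgacca included Atp5g1, Cox6b1, Sdhb, Ndufs1 and Uqcrc2. TMM scaling, which sets the median fold change of all genes near 0.00, gave 9 members higher and 3 lower (Cox7c, Ndufa5 and Ndufs6). There 52.4% of all called genes were higher, and without it 63.6%.

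In 3 members, chosen after their values were seen, the low libraries carried the same 6-base tags in both groups. Ndufb4, an accessory subunit of complex I, was at 157, 23.4, 27.0 and 213 CPM with no delay and at 337, 30.5, 25.6 and 130 CPM at 1 week. It was high in both acagtg and both tgacca libraries and low in the other 4. Cox5b, an oxidase subunit, was at 85.8, 704, 771 and 1044 CPM and then at 535, 834, 778 and 946 CPM, lowest with acagtg in both groups. Uqcrq, of complex III, was at 155, 176, 164 and 93.6 CPM and then at 181, 166, 206 and 104 CPM, lowest with tgacca in both. The 2 acagtg libraries differed widely from each other in Cox5b and Ndufb4. The tag's share of the variance within groups was 95%, 70% and 95.9% in Ndufb4, Cox5b and Uqcrq. It was also 97% in Atp5g2, 91.9% in Cox6b2 and 86.7% in Sdhc. Over all members tested it ran from 0.444% (Ndufv3) to 97%. With only 2 libraries to a tag, this share is large on average even without any effect of the tag. High values in some of many members therefore do not show that they follow it. Over genes, deviations of libraries with the same tag correlated at -0.04, -0.10, 0.06 and 0.20. Whether the tag bears on these levels was not tested.

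**Figure D5:**
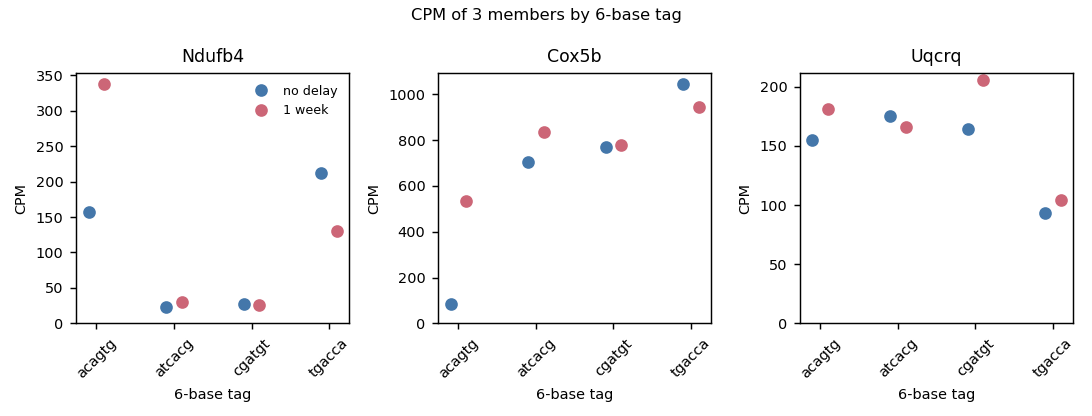
CPM of Ndufb4, Cox5b and Uqcrq by the 6-base tag of the library, no delay in blue and 1 week in red, 1 point a library. Ndufb4 is at 23.4 to 30.5 CPM with atcacg and cgatgt and at 130 to 337 CPM with the other tags, and the 2 acagtg libraries lie far apart for Ndufb4 and Cox5b.

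Genes that build or feed the complexes were read from lists of known function. Of 44 assembly factors in the table, 3 rose and 2 fell, with a median log2 fold change of 0.04. Together that is 11.4% called, fewer than the 36.8% of all genes tested. Those that rose were Bcs1l, which inserts the Rieske protein into complex III (0.32, limma adjusted p = 0.017), and the oxidase assembly factors Cox20 (0.38, listed as Fam36a, limma adjusted p = 0.019) and Coa4 (0.63, listed as Chchd8, limma adjusted p = 8.7e-03). Ttc19, a factor of complex III, fell by 0.30 on the log2 scale, and Cox17, a copper chaperone of the oxidase, fell by 0.21 (limma adjusted p = 0.015 and 0.035). Of 16 Krebs cycle and pyruvate dehydrogenase genes, 6 rose and none fell, with a median of 0.19: Suclg2 (0.67), Mdh2 (0.40), Pdha1 (0.37), Fh1 (0.28), Idh3g (0.26) and Suclg1 (0.20). That is 37.5% of the list, beside the 23.4% of all genes tested that rose.

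Among 12 regulators of mitochondrial genes, 2 rose (16.7%), fewer than the 23.4% of all genes tested that rose. Their median log2 fold change was 0.05. Ppargc1a, the coactivator PGC-1alpha, was at 10.04, 7.22, 10.3 and 6.25 CPM and then at 13.2, 11.5, 11.1 and 12.1 CPM, without overlap (log2 fold change 0.48, limma adjusted p = 0.023). Gabpa, a subunit of the ETS-family factor GABP, had a log2 fold change of 0.37 (limma adjusted p = 0.028). Nrf1 was at 11.4 ± 1.56 and 11.4 ± 1.61 CPM (SD, n = 4 each). Of the 13 subunits of the same complexes encoded in mitochondrial DNA, 6 fell and none rose, beside 13.4% and 23.4% of all genes tested. Their log2 fold changes ran from -1.85 to 0.76 with a median of -0.63, and 2 were above 0. Their summed level was 6748, 7345, 8914 and 8368 CPM with no delay and 4800, 5201, 4055 and 6642 CPM at 1 week, without overlap, while the nuclear members' sums overlapped. The difference between nuclear and mitochondrial genes was not tested. Nor was it tested whether CAGE, which reads capped 5′ ends, measures mitochondrial transcripts as it does nuclear ones. The division of reads between neighbouring mitochondrial genes is not given here.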

How the data were processed

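CAGE reads from 8 libraries, 4 with no delay and 4 at 1 week, were analysed from 1 table of 17644 gene symbols whose values the authors deposited as CPM (reads per 1000000 reads of the library). Per the labels' protocols, reads were single-end of 75 nt, and the submitters' processing notes name BWA 0.5.9 and build mm9. How reads were assigned to genes, and whether by strand, is not given in the sources used here. All values (100%) were whole multiples of 1 read within 0.1 reads, and 3 reads, the limit that a count of 0 allows, were 0.214 to 0.362 CPM, for counting error only. Columns show the group but no replicate number. The protocol gives 4 brains per time, but nothing ties a library to an animal, so p-values measure the spread between these samples, which may be technical. Chi-square per degree of freedom between libraries of a group averaged 8.36 to 15.9, where counting noise alone gives 1.

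Genes were tested on log2(CPM + 1) with limma 3.58.1 under R 4.3.3, using its trended variance, 2-sided, for the 14718 genes with 1 CPM or more in at least 4 libraries, with Benjamini-Hochberg adjustment over all of them. Fold changes are on that scale. The procedure was first tested on simulated data. Alternatives were other pseudocounts, filters, scalings, library weights, each library left out, and edgeR 4.0.16 and DESeq2 1.42.0 on the recovered reads, where edgeR called 2923 genes higher and 2569 lower. A fit with the 6-base tag as a block was added after seeing the data.

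Named were the Sdh genes, Cycs, Cyc1, the isoform pairs and, in complexes I, III, IV and V, of the called members the 2 highest and 2 lowest in fold change at a mean of 5 CPM or more, or, with fewer than 2 called, the 2 with the highest level. The members, lists and pairs were chosen with earlier results of these data known. List symbols absent from the table were sought by RefSeq synonyms, which matched 18. Neighbouring gene starts come from GENCODE M21. Promoter sequences are RefSeq's on GRCm38.p6, another build than mm9, and were matched by symbol only.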

Additional observations from a re-analysis of the deposited data

Results flagged for a closer look

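In 62 groups of 4 libraries of the named members and of Cox5b, Ndufb4 and Uqcrq, the gap between the highest or lowest library and its nearest neighbour was set against the group's range, as in Dixon's test at the 95% level. Chance passes about 1 in 20 groups. In 3 groups it was passed. Cox7a1 was at 1.58 CPM in no-delay library cgatgt, with 5.84 to 6.68 CPM in the other no-delay libraries (gap over range 0.835). Cyc1 was at 150 CPM in the same library, with 213 to 220 CPM in the others (0.900). Cox8b was at 1.21 CPM in 1-week library acagtg, with 1.95 to 2.07 CPM in the others (0.860), which rests on 10 reads there.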

How the results depend on the processing

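Direction and call were compared over 19 alternatives. The calls of Cox6b2, Atp5g2, Cox7a1, Cox6a2, Sdhc, Ndufa3 and Cox4nb held in all 19. Atp5c1 lost its call in 8, Ndufs8 in 11, and Cox4i2 and Ndufa4l2 under quantile normalization. The cause was not tested. Members that rose numbered 9 to 19 when single libraries were left out, the highest without 1-week library tgacca. Members that fell numbered 0 in the main analysis, 3 each with TMM and with median-of-ratios scaling, 1 with library weights, 2 with edgeR, 5 with DESeq2 and 0 to 3 when single libraries were left out. Cox7c, Ndufa5, Ndufb8, Ndufb10 and Ndufs6 made up these calls. The median log2 fold change of complex I ran from -0.0228 (without no-delay library cgatgt) to 0.0964 when single libraries were left out, and was -0.01 with DESeq2. That of complex IV ran from 0.0709 (without no-delay library acagtg) to 0.257, and was 0.0646 with a minimum of 5 CPM, where fewer low isoforms enter. That of complex III was -0.01 without no-delay library cgatgt, and that of complex V was 0.07 without it, 0.08 with TMM scaling and 0.06 with DESeq2. That of complex II was 0.11 with TMM scaling and 0.10 with DESeq2, and that of all members 0.04 and 0.03. Quantile normalization took the median of all genes from 0.06 to -0.04 and the share of called genes that were higher from 63.6% to 43.4%. Isoform ratios that passed numbered 0 at a pseudocount of 1, 6 at 0.25, 0 with TMM scaling (added after seeing the data) and 0 to 6 when single libraries were left out, the 6 without no-delay library cgatgt. These numbers rest on how many pairs reached the smallest possible p together.

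No paired analysis was possible because the columns carry no replicate number. Deviations of libraries with the same 6-base tag correlated at -0.04, -0.10, 0.06 and 0.20 over genes, so the tags were not taken to pair them. With the tag as a block, 14 members rose and 0 fell, 10 of the 11 among them.

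Low depth limits Cox8b and Cox4i2, with 8 to 49 reads a library. Values are relative to each library's total, and no unlesioned tissue was analysed here.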

Other observations

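Mitochondrial ribosome genes serve translation of the subunits encoded in mitochondrial DNA. Of the 79 tested, 6 rose and 2 fell at 1 week (limma, adjusted p under 0.05), with a median log2 fold change of 0.03. Together that is 10.1% called, fewer than the 36.8% of all genes tested. Mrpl24 had the largest rise (0.47, limma adjusted p = 1.8e-03), and Mrps9 and Mrps7 fell by 0.27 and 0.19 on the log2 scale. Of 9 carriers and partners of the complexes, only Slc25a3, the mitochondrial phosphate carrier that supplies the ATP synthase, passed the test (log2 fold change 0.24, limma adjusted p = 0.044).

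Of the 86 members, 28 have the start of a protein-coding gene on the other strand within 500 bases. In none of these pairs did both genes have about equal reads (within 5%) throughout the 8 libraries. Atp5c1 and its neighbour Kin, 83 bases away, both rose (log2 fold changes 0.28 and 0.32). Ndufs1 (0.25) did not pass the test while Eef1b2, 8 bases away, rose (0.36), and Ndufs3 (0.16) did not while Kbtbd4, 87 bases away, rose (0.30). Atp5h (-0.04) and Ndufb3 (-0.05) did not pass the test, while their neighbours Kctd2 and Fam126b fell by 0.31 and 0.21. These genes were picked after their values were seen, and differences between neighbours were not tested.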
